A study of Mus musculus with 16 samples.

Results

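Notch signalling genes were followed through 16 RNA libraries of mouse dorsal root ganglia. The 10 genes are the receptors Notch1, Notch2 and Notch3, the ligands Dll1, Dll3, Jag1 and Jag2, and the transcription factor genes Hes1, Hes5 and Hey1. They were taken by symbol from a table of 24421 genes, and all 10 were among the 15641 genes that passed the filter on low counts. Polyadenylated RNA was sequenced from lumbar ganglia of C57BL/6 embryos at embryonic day 13.5, with 4 libraries in each of 4 groups. KO_alpha3 embryos lacked importin α3 (Kpna4), and WT_alpha3 are wild types labelled with that line. KO_beta embryos carried a knockout of the 3′UTR of importin β1 (Kpnb1), and WT_beta are wild types labelled with that second line. The labels name no Cre driver, treatment, litter or dissection batch for any group, and the 8 wild types serve both projects per the series' design text. Whether each library is a different embryo is not stated in the labels, so p-values cover variation among these samples, part of which may be technical. The libraries of KO_alpha3 differed in Y-linked reads and so were not all repeats of 1 sample.

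Notch receptors are activated by Delta and Jagged ligands on neighbouring cells. The receptor is then cut, and its intracellular domain enters the nucleus, joins the DNA-binding protein Rbpj and switches on Hes and Hey genes, which encode repressors of neurogenic factors. In developing ganglia and spinal cord, newly forming neurons present Delta ligands, and active Notch keeps neighbouring cells as progenitors or glia. Jag1, Notch1 and Hey1 also act in blood vessels, and Notch3 in the muscle cells and pericytes of the vessel wall. Dll3 differs from other Delta ligands in that it does not activate receptors on neighbouring cells.

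Levels were also read along the log2 ratio of the counts of Hbb-bh1 and Hbb-y, 2 globin genes of the primitive red cells that circulate in the embryo. Hbb-bh1 is the earlier of the pair to decline as these cells mature. The ratio was -5.10, -6.81, -6.03 and -3.71 in KO_alpha3 42, 50, 75 and 81. It was -4.79, -6.93, -6.71 and -4.10 in WT_alpha3 45, 54, 55 and 79. KO_beta 398, 402, 406 and 411 had -6.06, -6.35, -6.45 and -7.00, and WT_beta 399, 401, 410 and 415 had -5.17, -6.04, -6.89 and -6.63. In all, 5 libraries lay at -5.17 or above and the other 11 below -6, and 4 of the 5 were from the α3 line. The mean ratio did not differ between groups beyond their spread: KO_alpha3 was 0.496 above the 8 wild types (exact 2-sided permutation p = 0.485), KO_beta 0.557 below them (-0.557; exact p = 0.388) and WT_beta 0.550 below WT_alpha3 (-0.550; exact p = 0.514), and Benjamini-Hochberg adjustment over the 3 tests gave 0.514 for each. Whether the ratio follows embryo age in these libraries was not tested.

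Library totals ran from 19682595 to 26873361 counts. Levels are given in CPM, the count scaled to library size after TMM normalization, and a mean carries its SD. Kpna4 lay at 0.862 ± 0.234 CPM (n = 4) in KO_alpha3 and at 76.6 ± 4.38 CPM (n = 8) in the wild types. Kpnb1 was 529 ± 23.0 CPM (n = 4) in KO_beta and 437 ± 49.1 CPM (n = 8) in the wild types, a count over the whole gene that does not check the deletion. In 3 libraries Hoxa10, a Hox gene of the lumbar region, was below 5 CPM: 0.877 for KO_alpha3 81, 4.38 for WT_alpha3 79 and 1.89 for WT_beta 399, against 22.5 to 84.5 in the other 13. The 4 libraries WT_alpha3 45, WT_alpha3 79, WT_beta 401 and WT_beta 415 exceeded 40 CPM in summed spinal cord markers. Y-linked reads were at or below 1.15 CPM in 6 libraries, namely KO_alpha3 42 and 81 and all 4 WT_beta, and at or above 105 CPM in the other 10. Sensory neuron markers were abundant in every library, summing to 7403 CPM in WT_alpha3 79 and to 9332 to 14642 CPM elsewhere, and none of the 12 was at 0.

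Per length, Jag2 was highest and the Delta ligands lowest. On the scale of CPM per kilobase of annotated exon, the means in the 8 wild types were 14.9 ± 2.89 for Jag2, 13.2 ± 1.65 for Hes1, 13.004 ± 2.11 for Hey1, 11.4 ± 2.42 for Notch1 and 10.3 ± 2.99 for Notch3. They were 8.77 ± 5.21 for Hes5, 8.07 ± 2.14 for Jag1, 6.55 ± 0.654 for Notch2, 3.98 ± 3.01 for Dll1 and 3.52 ± 3.83 for Dll3. Neighbours in this order had overlapping ranges and were in that order in 3 to 7 of the 8 libraries, so no step between neighbours exceeds the spread. Ganglia hold several cell types, and in these bulk libraries fewer cells of a type and less RNA per cell cannot be told apart.

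**Figure D1:**
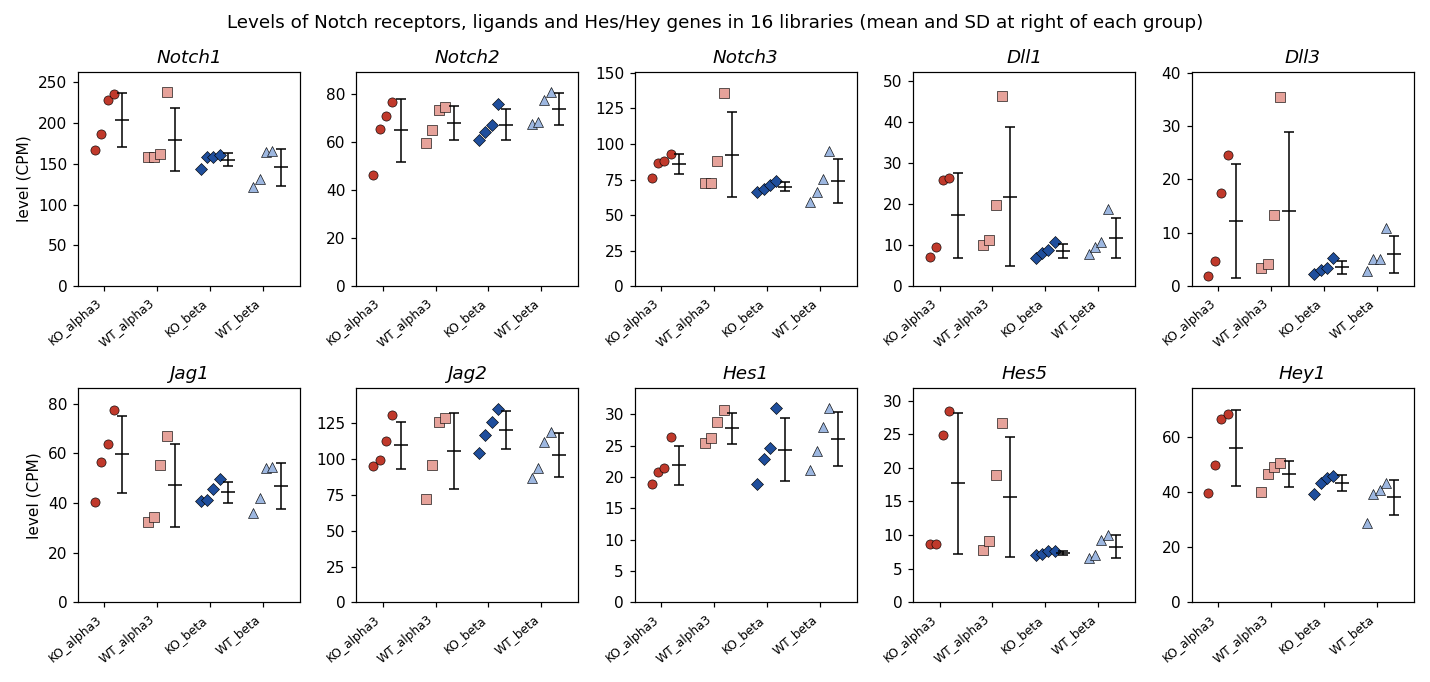
Level in CPM (y axis, from 0) of each of the 10 genes in the 4 groups (x axis), 1 point per library, with the group mean and SD at the right of each group (bars stop at 0). Dll1, Dll3 and Hes5 spread widely in KO_alpha3 and WT_alpha3 and little in KO_beta, where Hes5 lay between 6.98 and 7.57 CPM.

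Over the 16 libraries the Delta ligands had the widest spans of the 10 genes. Dll1 (chr17:15367354-15376872, GRCm38, minus strand), the activating Delta ligand of early neurogenesis, was at 26.4, 9.50, 7.03 and 26.0 CPM in KO_alpha3 42, 50, 75 and 81. In WT_alpha3 45, 54, 55 and 79 it was at 19.8, 10.05, 11.2 and 46.3 CPM. KO_beta 398, 402, 406 and 411 had 8.70, 10.8, 6.81 and 8.04 CPM of Dll1, and WT_beta 399, 401, 410 and 415 had 7.89, 18.9, 10.7 and 9.50. The 4 α3-line libraries with a high globin ratio held the 4 highest Dll1 levels, while WT_beta 399, with a ratio of -5.17, lay among the low libraries and WT_beta 401, with a ratio of -6.04, came next after the 4. All 4 groups overlapped.

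Dll3 (chr7:28293553-28302238, minus strand) had the widest span of the 10 genes, 18.02-fold between its highest and lowest library. It was at 17.5, 1.96, 4.64 and 24.5 CPM in KO_alpha3 42, 50, 75 and 81 and at 13.4, 4.11, 3.35 and 35.4 CPM in WT_alpha3 45, 54, 55 and 79. KO_beta 398, 402, 406 and 411 held 3.39, 5.29, 3.10 and 2.29 CPM of Dll3, and WT_beta 399, 401, 410 and 415 held 5.02, 10.97, 2.90 and 5.12. The same 4 α3-line libraries led, WT_beta 401 again came next, and each group overlapped the others. These levels rest on 44 to 719 reads of Dll3 per library.

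The Jagged ligands spanned less than the Delta ligands over the 16 libraries. Jag1 (chr2:137081456-137116644, minus strand) was at 77.6, 40.6, 56.4 and 64.0 CPM in KO_alpha3 42, 50, 75 and 81, and at 55.2, 34.2, 32.5 and 66.9 CPM in WT_alpha3 45, 54, 55 and 79. In KO_beta 398, 402, 406 and 411 Jag1 was at 40.7, 49.8, 45.6 and 41.2 CPM, and in WT_beta 399, 401, 410 and 415 at 36.2, 54.7, 54.2 and 42.1. Its 3 highest libraries, KO_alpha3 42, WT_alpha3 79 and KO_alpha3 81, were also the 3 highest for Dll1 and Dll3. Jag2 (chr12:112907819-112929776, minus strand), also a ligand that activates Notch receptors, was at 94.9, 131, 113 and 99.1 CPM in KO_alpha3 and at 95.5, 126, 128 and 72.1 CPM in WT_alpha3, in the same library order. KO_beta held 126, 116, 104 and 135 CPM of Jag2 and WT_beta 86.7, 93.6, 119 and 111. WT_alpha3 79 was the lowest library for Jag2, followed by WT_beta 399, and the 4 groups overlapped for both Jagged genes.

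Among the receptors, Notch1 (chr2:26457903-26516663, minus strand) was at 228, 166, 186 and 235 CPM in KO_alpha3 42, 50, 75 and 81. It was at 159, 159, 162 and 237 CPM in WT_alpha3, at 158, 158, 144 and 160.5 CPM in KO_beta and at 121, 165, 164 and 132 CPM in WT_beta, with libraries in the order given above. WT_alpha3 79 held the highest Notch1 level and WT_beta 399 the lowest, and the KO_alpha3 range overlapped that of the wild types. Notch3 (chr17:32120820-32166852, minus strand) was at 88.0, 76.0, 86.7 and 92.9 CPM in KO_alpha3 and at 88.4, 72.6, 72.7 and 136 CPM in WT_alpha3. KO_beta held 71.2, 73.7, 66.5 and 68.1 CPM of Notch3, and WT_beta 59.0, 95.3, 75.0 and 66.3. WT_alpha3 79 stood above all other libraries and WT_beta 401 came second. Notch2 (chr3:98013527-98150361, plus strand) varied least, from 46.2 CPM in KO_alpha3 81 to 80.7 CPM in WT_beta 401, with a mean of 68.2 ± 8.54 CPM over the 16 libraries.

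Of the target genes, Hes5 is a classic target of the Notch-Rbpj complex, and the Rbpj letters in its promoter are shown for that reason. The motif GTGGGAA, the core bound by Rbpj, or its reverse complement TTCCCAC, occurred 2 times in the 300 bases around the Hes5 start (250 before, 50 after) in RefSeq's GRCm38.p6 table. Read along the plus strand of chromosome 4, the 30-base windows with the motif in capitals are:
Hes5 distal window, chr4:154960686-154960715: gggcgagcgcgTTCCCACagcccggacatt
Hes5 proximal window, chr4:154960829-154960858: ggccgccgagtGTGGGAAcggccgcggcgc
The motifs begin 226 and 83 bases upstream of the start and lie on opposite strands. Of 32851 promoters of this length in the table, 2097 (6.38%) held the motif on either strand and 84 (0.256%) held 2 or more. RefSeq promoters were matched for 8 of the 10 genes (9 promoters), and the other 8 promoters, all of receptors and ligands, held no match within this window. Hes1 and Hey1 had no promoter in that table and were not searched, so Hes5 was not compared with the other target genes. A match describes letters only and says nothing of binding.

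Hes5 (chr4:154960923-154962371, plus strand), a repressor that keeps neural progenitors undifferentiated, fell into high and low libraries. It was at 24.9, 8.74, 8.71 and 28.4 CPM in KO_alpha3 42, 50, 75 and 81 and at 18.9, 7.85, 9.07 and 26.7 CPM in WT_alpha3 45, 54, 55 and 79. KO_beta 398, 402, 406 and 411 held 7.15, 6.98, 7.57 and 7.57 CPM of Hes5, and WT_beta 399, 401, 410 and 415 held 6.61, 10.1, 7.10 and 9.32. The 4 α3-line libraries with a high globin ratio were at 18.9 CPM or above and the other 12 at 10.1 CPM or below, including WT_beta 399, which was the lowest of all 16. Knockouts and wild types of the α3 line each contributed 2 of the 4 high libraries.

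Hes1 (chr16:30064384-30067796, plus strand) and Hey1 (chr3:8663359-8667256, minus strand) did not share that division. Hes1 was at 21.4, 26.3, 20.9 and 18.9 CPM in KO_alpha3 42, 50, 75 and 81, below all 4 WT_alpha3 libraries (25.4, 28.7, 26.2 and 30.7 CPM) except for KO_alpha3 50. Hes1 in KO_beta was at 18.9, 23.0, 31.1 and 24.7 CPM and in WT_beta at 21.1, 28.0, 31.0 and 24.2. Hey1, a repressor of the same family, was at 66.8, 39.7, 49.8 and 68.6 CPM in KO_alpha3 and at 50.8, 46.5, 40.3 and 49.4 CPM in WT_alpha3. In KO_beta it was at 39.3, 45.3, 46.0 and 43.4 CPM, and in WT_beta at 28.9, 39.6, 43.3 and 40.9. KO_alpha3 42 and 81 held the 2 highest Hey1 levels, and the remaining KO_alpha3 libraries lay within the wild-type range.

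Reads of some of these genes may belong to an overlapping gene, since the strand setting of the counting is not given in the sources used here. In GENCODE vM21, antisense A930024N18Rik covers 20.5% of the exon bases of Dll1, and Gm20421 covers 31.8% of those of Hes5. The antisense genes 0610009E02Rik and Gm17276 cover 7.50% of the exon bases of Notch1 and 6.03% of those of Notch3. On the same strand, Gm42820 shares 5.02% of the exon bases of Notch2.

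Each importin knockout was compared with the wild types. None of the 10 genes passed in KO_alpha3 against the 8 wild types by edgeR's quasi-likelihood test with Benjamini-Hochberg adjustment over all genes at 0.05. In that comparison 1 of 15641 genes passed (0.00639%), Kpna4 itself, and 1696 had an unadjusted p under 0.05. DESeq2 called 133 of 16557 genes (0.803%) and none of the 10. The lowest p was that of Hey1, at a log2 fold change of 0.41 ± 0.15 (SE; unadjusted p = 0.0139, adjusted p = 0.377). Notch1 was at 0.33 ± 0.14 (edgeR adjusted p = 0.425) and Hes1 at -0.30 ± 0.13 (edgeR adjusted p = 0.436), and these 3 were the members with an unadjusted p under 0.05. For Hey1 and Notch1 the highest KO_alpha3 libraries were 42 and 81. These had the highest globin ratios of the group and Y-linked reads of only 0.320 and 0.0418 CPM, and no fit left out both. With the globin ratio as a covariate Hey1 was at 0.33 ± 0.14 (edgeR adjusted p = 0.298) and Notch1 at 0.26 ± 0.12 (adjusted p = 0.342), and with any 1 library left out they stayed at or above 0.30 and 0.25. Against the 4 WT_alpha3 libraries alone the sign turned for Notch3 (-0.10), Dll1 (-0.34) and Dll3 (-0.21) and for no other member. Without KO_alpha3 50, 124 genes passed in place of 1, and none of them was a member.

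The remaining log2 fold changes in KO_alpha3 were 0.34 ± 0.19 for Jag1, 0.57 ± 0.39 for Hes5, 0.28 ± 0.69 for Dll3, 0.07 ± 0.14 for Jag2, 0.05 ± 0.17 for Notch3, 0.04 ± 0.46 for Dll1 and -0.13 ± 0.11 for Notch2. The 95% interval for Dll1 ran from -0.94 to 1.02 and that for Dll3 from -1.18 to 1.74, so changes of either sign within these limits are not excluded. Across the 10 genes the median log2 fold change was 0.18, against -0.01 over all genes tested. No member had KO_alpha3 and the 8 wild types without overlap, as 96 genes did (0.614%).

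In KO_beta against the 8 wild types no gene of 15641 passed (0.0%; 349 with an unadjusted p under 0.05), none of the 10 had an unadjusted p under 0.05, and DESeq2 called 1 gene of 20491 (0.00488%) that was not among them. The lowest values were those of Dll3 at -1.51 ± 0.76, Dll1 at -0.96 ± 0.49 and Hes5 at -0.71 ± 0.42 on the log2 scale (edgeR adjusted p = 0.932 for each). Notch3 was at -0.25 ± 0.17, Jag2 at 0.21 ± 0.14, Hes1 at -0.14 ± 0.13, Jag1 at -0.08 ± 0.20, Notch2 at -0.08 ± 0.11, Notch1 at -0.07 ± 0.14 and Hey1 at 0.04 ± 0.15. The wild-type mean of Dll1, 16.8 ± 12.7 CPM (n = 8), includes WT_alpha3 79 at 46.3 CPM, and against WT_beta the levels overlapped. The median over the 10 genes was -0.11, and no member was without overlap, as 21 genes were (0.134%). This comparison shares its wild types with that of KO_alpha3.

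**Figure D2:**
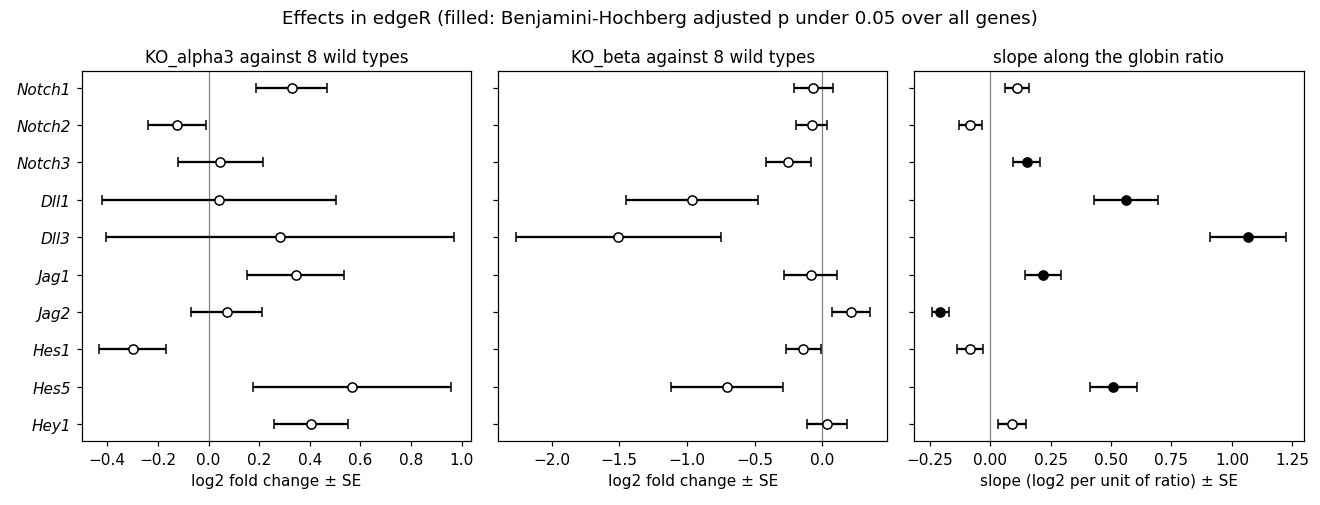
Log2 fold change with SE of each gene in KO_alpha3 and in KO_beta against the 8 wild types, and slope with SE per unit of the log2 globin ratio (x axes), with filled points for an adjusted p under 0.05 in edgeR. No point is filled in the knockout panels, and 6 are filled in the slope panel, from -0.21 for Jag2 to 1.07 for Dll3.

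Wild types of the 2 lines and the 2 knockout effects were compared as well. Between WT_beta and WT_alpha3, 3 genes passed (0.0192%; 824 with an unadjusted p under 0.05), and none was a member by edgeR or DESeq2, which called 29 of 18480 genes (0.157%). Hes5 had the lowest p of the 10, at -0.92 ± 0.42 in WT_beta (unadjusted p = 0.0453, edgeR adjusted p = 0.940), followed by Notch1 at -0.30 ± 0.15. Dll3 was at -1.22 ± 0.78 and Dll1 at -0.89 ± 0.51. Y-linked reads were at or below 1.15 CPM in every WT_beta library and at or above 105 CPM in every WT_alpha3 library, so line and Y-linked level cannot be told apart there. No member was without overlap between these groups, as 424 genes were (2.71%). For the difference of the knockout effects, each against its own wild types, 1 gene passed (0.00639%; 191 with an unadjusted p under 0.05), and none was a member by edgeR or by DESeq2, which called 6 of 20447 genes (0.0293%). The member values ran from -0.25 ± 0.22 for Hes1 to 0.57 ± 1.10 for Dll3, with an edgeR adjusted p of 0.996 for each of the 10.

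In a fit of 1 slope shared by the 4 groups, the Delta ligands and Hes5 rose along the globin ratio and Jag2 fell. The rise was not seen in every group: in the β line alone Dll1 was at -0.01 ± 0.28 and Hes5 at -0.09 ± 0.14. The slope, in log2 units of level per unit of the log2 ratio, was 1.07 ± 0.16 for Dll3 (edgeR adjusted p = 0.00014), 0.56 ± 0.13 for Dll1 (adjusted p = 0.0033), 0.51 ± 0.10 for Hes5 (adjusted p = 0.00076) and -0.21 ± 0.04 for Jag2 (adjusted p = 0.00036). Jag1 rose at 0.22 ± 0.07 (edgeR adjusted p = 0.0243) and Notch3 at 0.15 ± 0.06 (adjusted p = 0.0448). In all, 5 members rose and 1 fell. In the same fit 7297 of 15639 genes passed (46.7%), 3210 of them higher (20.5%) and 4087 lower (26.1%), so that a pass was common among genes at large. The median slope was 0.13 over the members and -0.01 over all genes tested.

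Slopes that did not pass were 0.11 ± 0.05 for Notch1 (edgeR adjusted p = 0.0733), 0.09 ± 0.06 for Hey1 (0.207), -0.08 ± 0.05 for Notch2 (0.172) and -0.08 ± 0.05 for Hes1 (0.227). Notch1 passed in 7 of the 16 fits that left out 1 library, and DESeq2 called it along with the 6 above (41.3% of all genes). Hey1 passed only without WT_beta 399 (0.14, edgeR adjusted p = 0.0169) and Notch2 only without WT_alpha3 54 (-0.12, edgeR adjusted p = 0.0446). Jag1 no longer passed without KO_alpha3 50, WT_alpha3 54, WT_alpha3 55 or WT_alpha3 79, where its edgeR adjusted p ran from 0.055 to 0.085. Notch3 no longer passed without WT_alpha3 54, WT_alpha3 55, WT_alpha3 79 or KO_beta 398, with an edgeR adjusted p of 0.055 to 0.21, and its slope without WT_alpha3 79 was 0.09. Dll1, Dll3, Hes5 and Jag2 passed in all 16 of these fits.

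**Figure D3:**
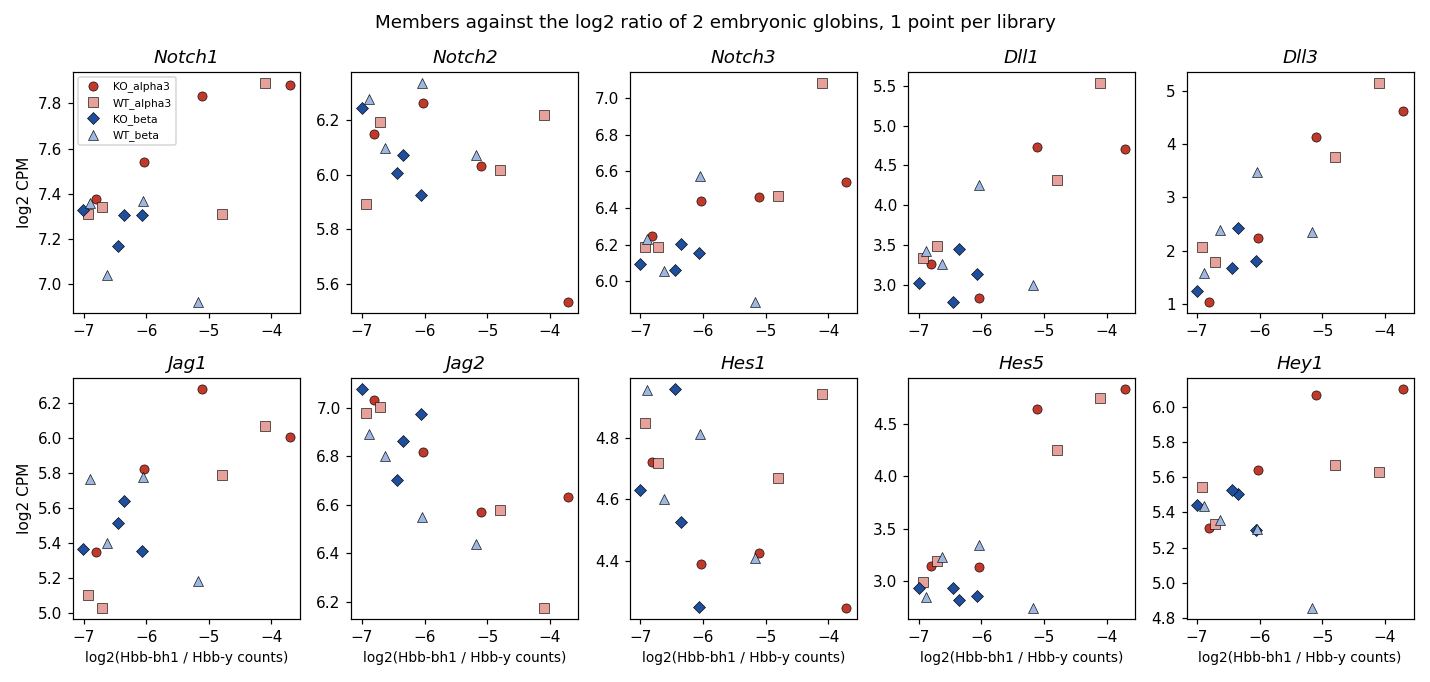
Log2 CPM (y axes) of each gene against the log2 ratio of Hbb-bh1 to Hbb-y counts (x axes), 1 point per library, with colour and shape for the group. Dll1, Dll3 and Hes5 are highest in the 4 α3-line libraries at the right of each panel, while WT_beta 399 at -5.17 lies low for Dll1 and Hes5.

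The slopes were also taken within each line, of which the α3 line spanned more of the ratio. With the 8 α3-line libraries alone, 8 of the 10 genes passed (43.6% of all genes): Dll3 at 1.143 ± 0.13, Dll1 at 0.66 ± 0.12, Hes5 at 0.62 ± 0.08, Jag1 at 0.30 ± 0.06, Notch3 at 0.19 ± 0.05, Notch1 at 0.16 ± 0.04, Hey1 at 0.16 ± 0.05 and Jag2 at -0.20 ± 0.04 (edgeR adjusted p from 0.00089 to 0.028). With the 8 β-line libraries alone, none of the 10 passed by edgeR (4.5% of all genes). There Dll3 was at 0.54 ± 0.40, Dll1 at -0.01 ± 0.28, Hes5 at -0.09 ± 0.14, Jag1 at -0.16 ± 0.12, Notch3 at -0.05 ± 0.13, Notch1 at -0.12 ± 0.09, Hey1 at -0.26 ± 0.07 and Jag2 at -0.22 ± 0.07. Jag2 had a negative slope in both lines, with a difference of 0.04 ± 0.10 and a 95% interval from -0.16 to 0.25. WT_beta 399 is the only β-line library above -6 in ratio.

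A test of the difference between the slopes of the lines, added after the data were seen, called 140 genes (0.895%; 2827 with an unadjusted p under 0.05) and none of the 10 by edgeR. Hey1 was at 0.44 ± 0.11 (edgeR adjusted p = 0.0769), Hes5 at 0.73 ± 0.20 (0.0893), Jag1 at 0.48 ± 0.16 (0.154) and Notch1 at 0.30 ± 0.11 (0.186), and these 4 had an unadjusted p under 0.05. DESeq2 called Hes5 and Hey1 (adjusted p = 0.017 and 0.018) among 616 of 16956 genes (3.63%). Dll1 was at 0.68 ± 0.35 and Dll3 at 0.63 ± 0.45. The count over all genes depended on single libraries: it was 0 without WT_beta 399 or 410, 1 or 2 without KO_beta 398, KO_beta 406, KO_alpha3 50 or WT_alpha3 55, and 641 and 1236 without WT_alpha3 79 and KO_alpha3 81.

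Correlations were taken without a model. Over the 16 libraries, log2 CPM followed the ratio with Pearson r = 0.892 for Dll3 (Spearman rho = 0.847), 0.832 for Hes5 (0.538), 0.757 for Dll1 (0.474) and -0.801 for Jag2 (-0.824). By a permutation test of r with Benjamini-Hochberg adjustment over all genes, 7 of the 10 passed (49.4% of all genes), the 6 above and Notch1 (r = 0.592, adjusted p = 0.0349). Adjusted permutation p-values were 0.00039 for Dll3, 0.0024 for Hes5, 0.0048 for Dll1 and 0.0010 for Jag2, and those of rho were 0.0011, 0.0715, 0.123 and 0.0016. Without KO_alpha3 81 and WT_alpha3 79, the 2 libraries farthest from the median ratio, Dll3 (r = 0.787) and Jag2 (r = -0.820) still passed (34.3% of all genes). Hes5 was then at 0.633 (adjusted permutation p = 0.0577) and Dll1 at 0.527 (0.113), and none of the other 5 of the 7 passed. These 14 libraries also span less of the ratio, so lower power and dependence on the 2 left out cannot be told apart. Within the α3 line 6 passed by exact permutation (37.2%), within the β line none of the 10 (0.0639%), and within the 11 libraries below -6 none (0.0%), with r = 0.623 for Dll3, -0.620 for Jag2, 0.192 for Hes5 and 0.123 for Dll1. No correlation was computed within the 5 libraries above -6.

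Progenitor and cell cycle markers rose along the ratio as Dll1, Dll3 and Hes5 did. The neurogenic progenitor list summed to between 217 and 911 CPM in KO_alpha3, 192 and 1002 in WT_alpha3, 200.4 and 324 in KO_beta, and 288 and 435 in WT_beta. In the slope test 7 of its 8 genes rose, with a median slope of 0.99, none was at 0 in any library, and Mki67, a gene of dividing cells, and Neurod1, a factor of forming neurons, had slopes of 0.62 ± 0.08 (edgeR adjusted p = 5.7e-05) and 0.96 ± 0.17 (adjusted p = 0.00051). All 12 cell cycle genes, of which Mki67 is in both lists, rose, with a median slope of 0.58, and Top2a was at 0.60 ± 0.06. The cell cycle sum was 491 to 1089 CPM in KO_alpha3, 450 to 1803 in WT_alpha3, 463 to 628 in KO_beta and 555 to 1178 in WT_beta. Their part in the slopes of Dll1, Dll3 and Hes5 was not tested. WT_beta 399, low for Dll1 and Hes5, was at 1178 CPM for the cell cycle list and at 435 CPM for the progenitor list.

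The spinal cord is the nearest other tissue that expresses Dll1, Dll3 and Hes5. Its 12 markers summed to 7.90 to 28.2 CPM in KO_alpha3, 13.5 to 122 in WT_alpha3, 9.07 to 24.9 in KO_beta and 13.1 to 107 in WT_beta, and 7 of the 12 rose along the ratio, with a median slope of 0.83. Pax3, which neural crest derivatives also express, had a slope of 0.81 ± 0.18 and Pax2 one of 0.90 ± 0.29. Olig2 and Nkx2-2 were at 0 in KO_alpha3 50 and WT_beta 410. The sum was 23.1 and 28.2 CPM in KO_alpha3 42 and 81, 55.4 and 122 CPM in WT_alpha3 45 and 79, and 107 and 45.2 CPM in WT_beta 401 and 415. The part of spinal cord RNA in these levels was not tested. Without the 4 libraries above 40 CPM, Dll3 (1.01 ± 0.19), Hes5 (0.46 ± 0.13) and Jag2 (-0.14 ± 0.04) still passed in edgeR, with an adjusted p of 0.0092, 0.039 and 0.049. Notch2 passed at -0.18 ± 0.05, and 18.5% of all genes passed, against 46.7% with all 16 libraries. Dll1 was at 0.41 ± 0.17 (edgeR adjusted p = 0.12), Jag1 at 0.09 ± 0.10 and Notch3 at 0.04 ± 0.04 in that fit and did not pass. The libraries left out include WT_alpha3 45 and 79, the high-ratio libraries of their group (-4.79 and -4.10). Removing spinal cord signal and narrowing the ratio therefore cannot be told apart in these changes.

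Other libraries that stand apart changed the calls of fewer members. The 3 libraries low in Hoxa10 had the highest ratio of their groups: -3.71 in KO_alpha3 81, -4.10 in WT_alpha3 79 and -5.17 in WT_beta 399. Leaving them out also narrows the ratio, so low Hoxa10 and a high ratio cannot be told apart in these libraries. Without the 3 libraries low in Hoxa10 the same number of members passed, 6 (42.3% of all genes), with Dll3 at 1.28 ± 0.19, Dll1 at 0.64 ± 0.15, Hes5 at 0.63 ± 0.11, Jag1 at 0.37 ± 0.07, Notch3 at 0.17 ± 0.05 and Jag2 at -0.22 ± 0.04. With the Y-linked level as a covariate, 4 passed (40.2%): Dll3 at 0.95 ± 0.18, Dll1 at 0.46 ± 0.15, Hes5 at 0.40 ± 0.11 and Jag2 at -0.23 ± 0.04. Notch3 at 0.18 ± 0.07 (edgeR adjusted p = 0.0545) and Jag1 at 0.19 ± 0.09 (adjusted p = 0.102) did not pass in that fit. Nor did Notch1 at 0.07 ± 0.06, Hey1 at 0.003 ± 0.06, Notch2 at -0.03 ± 0.05 and Hes1 at -0.08 ± 0.07. KO_alpha3 42 and 81 had both the highest ratios and the lowest Y-linked reads of their group. Y-linked level and ratio therefore cannot be told apart in KO_alpha3. Markers of mature sensory neurons moved the other way in part, with 6 of 12 lower and 2 higher along the ratio. Nefl, a neurofilament gene, fell at -0.17 ± 0.04, and Tubb3 was at -0.09 ± 0.04 without passing. Glial markers gave 0 higher and 4 lower of 10, and endothelial markers 0 higher and 1 lower of 10, with a summed endothelial level of 346 to 528 CPM over all libraries. Erythroid markers gave 3 higher and 0 lower of 6 tested (median slope 0.88), summing to 108 to 4376 CPM. Sympathetic markers gave 1 higher and 1 lower of 6 (median 1.46). Epidermal and fibroblast markers gave 2 higher and 1 lower of 8 each, and pericyte markers 1 and 1 of 8. Skeletal muscle and macrophage markers gave 0 of 8 each.

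**Figure D4:**
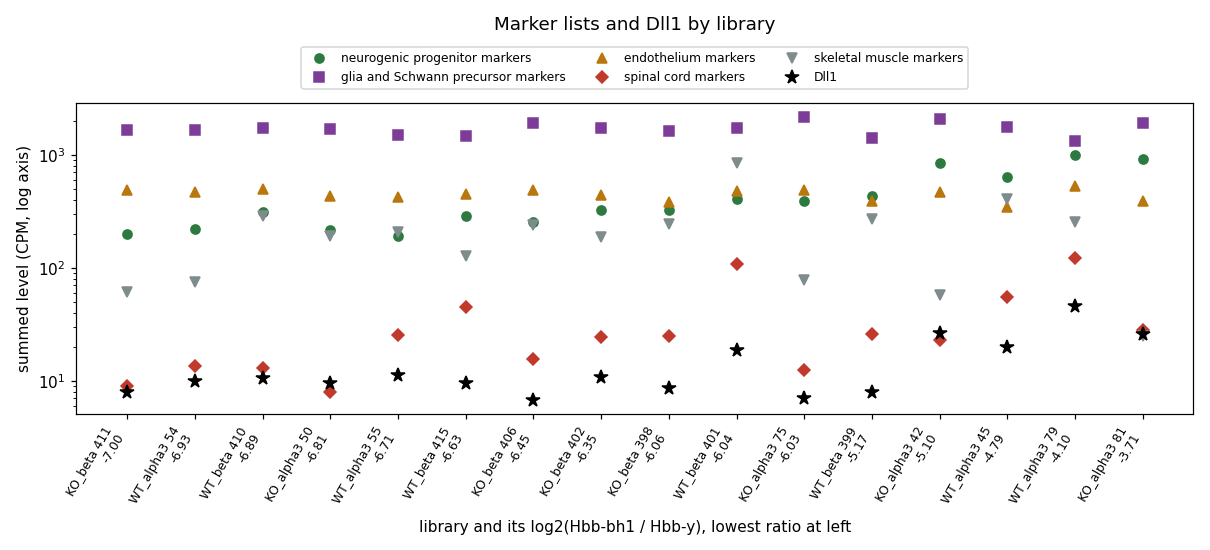
Summed level in CPM (log y axis) of 5 marker lists and the level of Dll1 in each library, with libraries from the lowest globin ratio at left to the highest at right (x axis). The progenitor sum and Dll1 are high together in the 4 α3-line libraries at the right, while glial sums run from 1313 to 2156 CPM and endothelial sums from 346 to 528 CPM over the 16 libraries.

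The other genes of the pathway were taken as 5 lists of 62 genes, of which 58 were tested. Along the ratio 27 of the 58 passed in edgeR, 11 higher and 16 lower, a share of 46.6% that lies at the background of 46.7%. Among Hes and Hey genes, Hes6, which promotes neurogenesis by opposing Hes1, rose at 0.59 ± 0.09, Heyl rose at 0.17 ± 0.06 and Hey2 fell at -0.48 ± 0.06. Among other receptors and ligands, Notch4 rose at 0.16 ± 0.05 and Dlk2 fell at -0.35 ± 0.10. Of 15 genes for receptor glycosylation and cleavage, 1 rose and 5 fell: Mfng, a fringe glycosyltransferase, was at 0.52 ± 0.10, Rfng at -0.13 ± 0.03, the protease gene Adam10 at -0.20 ± 0.05 and the γ-secretase gene Aph1b at -0.14 ± 0.04.

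Ligand endocytosis and receptor turnover gave 0 higher and 5 lower of 13. Neurl1b, a ubiquitin ligase gene for ligand uptake, fell at -0.36 ± 0.07, Mib2 at -0.17 ± 0.03, Neurl1a at -0.16 ± 0.04 and Dtx3 at -0.12 ± 0.03. The nuclear complex and its co-repressors gave 7 higher and 4 lower of 21 tested. Maml3, a co-activator gene, fell at -0.24 ± 0.03, the co-repressor genes Tle1 and Tle2 fell at -0.23 ± 0.03 and -0.39 ± 0.06, and Ctbp2 rose at 0.46 ± 0.07. Of these 5 lists, Hes6, Mfng and Ctbp2 were the genes with a slope above 0.3.

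**Figure D5:**
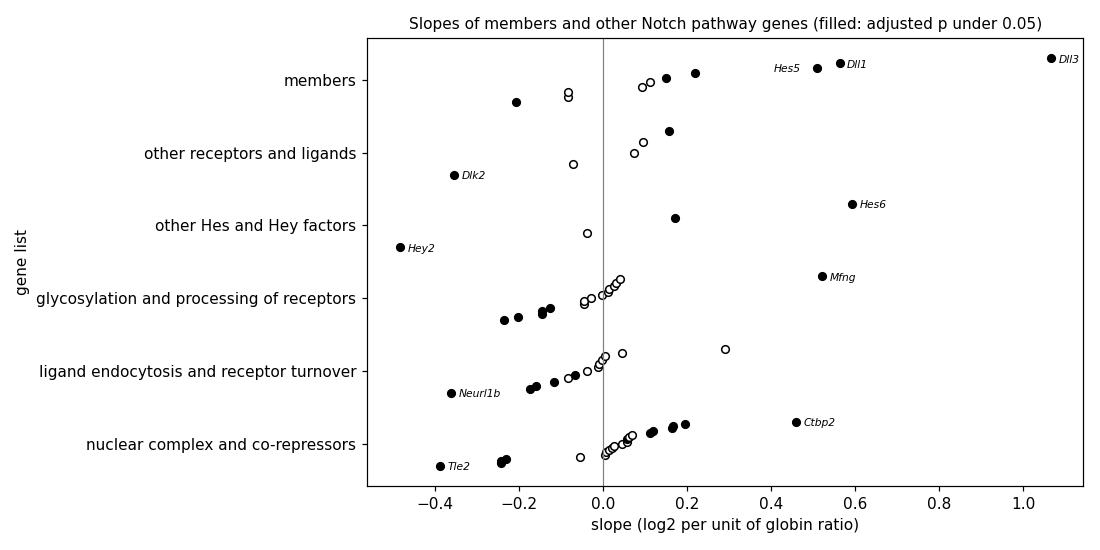
Slope per unit of the log2 globin ratio (x axis) of the 10 genes and of the 58 other pathway genes tested, by list (y axis), with filled points for an adjusted p under 0.05 in edgeR. Slopes of the other lists scatter on both sides of 0, from -0.48 for Hey2 to 0.59 for Hes6, and Dll3 lies beyond all of them at 1.07.

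In the comparisons between groups none of the 58 passed in edgeR. In KO_alpha3 against the 8 wild types, 7 of the 58 had an unadjusted p under 0.05, beside 1696 of all 15641 genes tested. The lowest p of each list were those of Dtx1, a regulator of receptor turnover, at -1.54 ± 0.41, Heyl at 0.57 ± 0.17, Dlk1 at -0.75 ± 0.29, Hdac2 at 0.16 ± 0.07 and Lfng at -0.35 ± 0.16 on the log2 scale, with edgeR adjusted p-values of 0.33 to 0.46. DESeq2 called 2 of the 58 there, Dtx1 and Numbl, beside 0.803% of all genes. In KO_beta 1 had an unadjusted p under 0.05, beside 349 of all 15641 genes, and DESeq2 called none. Dtx1 was at -0.99 ± 0.40, Dlk1 at -0.54 ± 0.29, Poglut1 at 0.11 ± 0.06, Tle1 at 0.22 ± 0.15 and Hes6 at -0.47 ± 0.39 (edgeR adjusted p = 0.932 for each). Between the wild types 6 had an unadjusted p under 0.05, beside 824 of all 15641 genes. Numbl was at -0.26 ± 0.07 and Kat2a at -0.21 ± 0.06 (edgeR adjusted p = 0.64), with Heyl at -0.36 ± 0.19, Adam10 at 0.34 ± 0.18 and Dlk1 at 0.45 ± 0.32. For the difference of the knockout effects 1 had an unadjusted p under 0.05, Dtx4 at -0.27 ± 0.12, beside 191 of all 15641 genes. The lowest of the other lists were Cir1, Aph1c, Dner and Hes6, with an edgeR adjusted p of 0.996. DESeq2 called none in these last comparisons. For the difference of the slopes between lines, 12 of the 58 had an unadjusted p under 0.05, beside 2827 of all 15639 genes. The lowest was that of Ctbp2 at 0.52 ± 0.12 (edgeR adjusted p = 0.0620), and DESeq2 called Ctbp2, Hes6 and Nrarp, beside 3.63% of all genes. Hes6 was at 0.64 ± 0.19, Mfng at 0.65 ± 0.22, Dlk1 at -0.83 ± 0.26 and Dtx3l at -0.45 ± 0.16 there.

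Likeness of pattern was measured as Pearson r of log2 CPM over the 16 libraries against 15638 other genes, and is a description, since the libraries share depth and composition. Genes most like Dll3 were St8sia2 (r = 0.967), Racgap1 (0.967) and Wwc1 (0.965). Those most like Dll1 were Spsb1 (0.943), Rnf165 (0.942) and Nedd9 (0.940), and those most like Hes5 were Optc (0.981), Gse1 (0.963) and Foxp4 (0.953). Dll3 ranked 10 and Hes5 ranked 19 among all genes for likeness to Dll1, with r of 0.915 and 0.905. From the other sides more genes came before them. Dll1 ranked 146 and Hes5 ranked 290 for likeness to Dll3, and Dll1 ranked 90 and Dll3 ranked 131 for likeness to Hes5.

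Jag1 was most like Prkd3 (0.946), Ttc23 (0.945) and Fndc3c1 (0.945), and the genes like Jag2 included Vezt (0.965) and Mapk8ip3 (0.964). Jag2 and Dll3 ran opposite, with r of -0.822. Notch1 was most like Tfap2a (0.933), Llgl1 (0.932) and Rnf44 (0.927), Notch3 most like Smtn (0.962), Ttyh3 (0.961) and Gli3 (0.944), and Notch2 most like Kank2 (0.921), Fn1 (0.887) and Tmem200b (0.877). Hes1 had the weakest neighbours, Smad7 (0.871), Sntb1 (0.845) and Rab34 (0.837). Hey1 was most like Pcbp4 (0.925), Ppp1r18 (0.925) and its relative Heyl (0.921). Hes1 and Hes5 shared no pattern, with r of -0.128.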

How the data were processed

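RNA of 16 libraries was measured by sequencing, 4 in each of 4 groups assigned from the sample titles and labels. The authors deposited raw read counts per gene, which were used as they are. The submitters' processing notes name build mm10, the aligner TopHat2 (2.0.10) and the counter HTSeq (0.6.1p1), and also cutadapt, DESeq2 (1.6.3) and bcl2fastq (2.17.1.14). The table of normalized values was not used. Of 24421 genes, 3922 had no count and 15641 passed edgeR's filterByExpr (minimum count 10, minimum total 15).

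Counts were scaled by TMM and tested with edgeR 4.0.16 in R 4.3.3 (quasi-likelihood, 2-sided, Benjamini-Hochberg over all genes at 0.05), with 3 groups for each knockout against the 8 wild types, 4 groups for the other group comparisons, and 4 groups plus the globin ratio for slopes. The SE is the log2 value divided by the root of F. Of the genes with a value of the ratio, the globins themselves were left out, giving 15639. Correlations used log2 CPM (prior count 2) and 100000 permutations, or all 40320 orders for 8 libraries. Python 3.11.15, scipy 1.17.1 and DESeq2 1.42.0 were also used. Depth of 19682595 to 26873361 counts per library limits the precision of Dll3 most, which had the fewest reads.

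The tests were tested on simulated data of 15641 genes. Changed genes were drawn at random, 100 per size of change and 1 draw per comparison. Shares may therefore differ between comparisons by the draw alone. At a log2 change of 1, 84% of the changed genes were recovered for KO_alpha3, 70% for KO_beta and 70% for the wild types. Recovery was 56% for the difference of the knockout effects, 96% for a slope of 1 per unit of the ratio and 68% for the difference of slopes. False calls ran from 6 for KO_beta to 12 for the difference of slopes. These shares do not hold for members of wide spread, such as Dll1 and Dll3 in KO_alpha3 (SE of 0.46 and 0.69). Of the members only Dll3 had a slope that large (1.07), and the others ran from -0.21 for Jag2 to 0.56 for Dll1. In the data 46.7% of all genes passed along the ratio, a far larger share than was changed in the simulation.

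The members and lists were chosen with earlier results of these data known. All 10 members are named in each comparison. Of each other pathway list, genes that passed are named up to 4 by lowest p, and otherwise the gene of lowest p. For likeness the 3 genes of highest r are named, except 1 that is not reported here, and for marker lists that moved with a result, the summed level and the 2 most abundant genes. Genes named beyond this rule (Nrarp, Numbl, Olig2 and Nkx2-2) were chosen after their values were seen. Alternatives covered the tool, scaling, filter, covariates, wild types used and libraries left out.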

Additional observations from a re-analysis of the deposited data

Results flagged for a closer look

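Notch1 stood apart in 2 libraries. In WT_alpha3 79 it was at 237.3 CPM, where the other WT_alpha3 libraries lay between 158.5 and 162.4 CPM, a gap of 0.951 of the group's range. In KO_beta 406 it was at 143.8 CPM against 158.1 to 160.5 CPM in the other KO_beta libraries, a gap of 0.854 of the range. Both gaps exceed Dixon's 95% critical value for 4 samples. Of 44 groups of 4 examined, chance alone passes this limit in about 1 in 20, so about as many flags as these 2 are expected by chance.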

How the results depend on the processing

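No paired analysis was possible because the groups share no replicate numbers. The tests without the libraries low in Hoxa10, without those high in spinal cord markers, within each line and within the 11 libraries below -6, and the difference of slopes, were chosen after seeing the data. The cause of the changes below was not tested. DESeq2 called 133 genes for KO_alpha3, 1 for KO_beta, 29 between the wild types, 6 for the difference of the knockout effects and 616 for the difference of slopes (2 members). Without a filter the last 2 gave 2 and 238. The globin covariate gave 5 between the wild types. The difference of slopes gave 67 with library size only, 52 with the Y-linked covariate, 1 without the libraries low in Hoxa10 and 545 without those high in spinal cord markers (2 members). The slope gave 692 genes and 0 members in the β line, and 2921 genes without the libraries high in spinal cord markers. Members called by correlation were 2 without the 2 farthest libraries, 0 in the β line and 0 in the 11 libraries.

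Leaving out 1 library gave 1 to 124 genes for KO_alpha3, 0 for KO_beta, 2 to 7 between the wild types, 1 to 3 for the difference of the knockout effects, 5893 to 7796 for the slope (4 to 8 members) and 0 to 1236 for the difference of slopes (0 to 3 members), with 6 to 8 members by correlation and 0 members in each group comparison. The difference in globin ratio ran from -0.072 to 0.961 for KO_alpha3, turning without KO_alpha3 81, from -0.703 to -0.298 for KO_beta and from -0.982 to -0.039 between the wild types. Signs turned within these log2 ranges: in KO_alpha3, Notch2 -0.21 to 0.0050, Notch3 -0.011 to 0.20, Dll1 -0.24 to 0.47, Dll3 -0.31 to 0.94 and Jag2 -0.0041 to 0.14; in KO_beta, Notch1 -0.12 to 0.016 and Hey1 -0.029 to 0.082; between the wild types, Jag1 -0.16 to 0.21 and Jag2 -0.17 to 0.070. For the difference of the knockout effects they were Notch3 -0.15 to 0.26, Dll1 -0.19 to 0.83 and Hey1 -0.0044 to 0.26, for the slope Notch2 -0.12 to 0.012, and for the difference of slopes Notch2 -0.017 to 0.15, Notch3 -0.076 to 0.32, Dll3 -0.37 to 1.00 and Jag2 -0.025 to 0.091.

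Other signs turned too, none past the threshold. In KO_alpha3 own-line wild types gave Notch3 -0.10, Dll1 -0.34 and Dll3 -0.21, the globin covariate Notch3 -0.019, Dll1 -0.24 and Dll3 -0.33, the Hoxa10 exclusion Notch2 0.0024 and the spinal cord exclusion Jag2 -0.061. In KO_beta Notch1 was 0.091 with own-line wild types, 0.015 with the globin covariate and 0.027 without spinal cord, Jag1 0.039 with the globin covariate, 0.0075 with the Y-linked covariate and 0.16 without spinal cord, and Hey1 -0.0084 without low Hoxa10. Between the wild types Jag1 was 0.017 with library size only, 0.011 without a filter, 0.18 with the globin covariate, 0.31 without low Hoxa10 and 0.47 without spinal cord, Jag2 0.017 with library size only, Dll3 0.12 without spinal cord, and Notch3 0.019 and Hes1 0.053 without low Hoxa10. For the difference of the knockout effects the Y-linked covariate, which coincides with the knockout in the β line and cannot be told apart from it, gave Notch1 -0.50, Dll1 -2.47, Dll3 -3.74, Jag1 -0.41, Jag2 0.27, Hes1 0.038, Hes5 -2.06 and Hey1 -0.80. There Notch3 was 0.013 with DESeq2, 0.0091 with RLE scaling, 0.0099 with library size only, 0.027 without a filter, 0.28 without low Hoxa10 and 0.23 without spinal cord, and Dll1 was -0.034 with the globin covariate. Slopes in the β line were -0.12 for Notch1, -0.053 for Notch3, -0.0089 for Dll1, -0.16 for Jag1, -0.095 for Hes5 and -0.26 for Hey1. The difference of slopes turned for Notch2 without spinal cord (-0.033) and, without low Hoxa10, for Notch3 (-0.13) and Dll3 (-0.28). Pearson r turned in the β line for Notch1 (-0.555), Notch3 (-0.186), Jag1 (-0.419), Hes5 (-0.192) and Hey1 (-0.847), and in the 11 libraries for Notch2 (0.044).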
